A study of Homo sapiens with 12 samples.

Results

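BHLHE40, BHLHE41 and the 4 ID genes encode helix-loop-helix proteins outside the HES and HEY families that have been linked to Notch signalling. All peaks of the Notch3 ChIP libraries whose summit lay inside 1 of these 6 genes or within 100 kb of its hg38 span were taken, which gave 14 peaks of 12583 in the series, 12 from N3ICD libraries and 2 from GFP libraries. Chromatin immunoprecipitation with sequencing (ChIP-seq) had been done on neural crest cells derived from the human embryonic stem cell line H9 and kept in E6-CSFD medium. One group had received an N3ICD-GFP lentivirus, which delivers the intracellular domain of Notch3, and the other a GFP lentivirus, both 6 days before analysis. Both groups were precipitated with the same antibody to Notch3, with 3 ChIP libraries each, lettered A to C and always given in that order. The series text gives 3 independent differentiations of this single line. The labels call the N3ICD cells mural and the GFP cells neural crest. Whether a letter marks the same differentiation in both groups, and which promoter drives the lentiviral insert, are not given in the sources used here. The 6 input libraries were not analysed here.

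BHLHE40 and BHLHE41 (also called DEC1 and DEC2) are repressors that bind E boxes on DNA and restrain the circadian clock, and BHLHE40 also responds to hypoxia. ID proteins have the helix-loop-helix but no basic DNA-binding region. They pair with E proteins such as TCF3 and keep them off DNA, and their genes are best known as targets of BMP signalling through SMAD proteins. Notch intracellular domains act on DNA with RBPJ, whose sites share the core TGGGAA.

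Each library had its own peak list, and peaks of different libraries that overlapped by at least 1 bp were joined into a region. A region supported by at least 2 N3ICD libraries and by no GFP library was called N3ICD-only. The 14 peaks formed 12 regions, of which 10 came from a single library. The other 2 were N3ICD-only regions, at the start of ID2 and just past the far end of BHLHE40. Both rested on N3ICD C, without which neither was called. Without N3ICD A 1 was left, at ID2, and without N3ICD B 1 was left, at BHLHE40. No region was found in at least 2 GFP libraries and no N3ICD library. Of all 20037 protein-coding genes, 3.87% had an N3ICD-only region by the same window and 0.0349% had a GFP-only region. Among the 3696 genes no longer than BHLHE40, the longest of the 6, the N3ICD-only share was 3.9%. Genes near one another share regions, so these shares and the count of 2 of 6 are a description with no test.

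The bases upstream of 3 of the genes are shown, each as the 250 bases before the RefSeq transcript start on GRCh38.p14, 5′ to 3′ on the gene's own strand. ID2 is shown because 1 of the 2 recurring regions reached into this stretch. In ID2 the capitals mark the 95 bases covered by the N3ICD C peak. BHLHE40 and BHLHE41 are shown because searched motifs lie in them, and there the capitals mark the motifs.

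chr2:8681806-8682055, plus strand, ID2: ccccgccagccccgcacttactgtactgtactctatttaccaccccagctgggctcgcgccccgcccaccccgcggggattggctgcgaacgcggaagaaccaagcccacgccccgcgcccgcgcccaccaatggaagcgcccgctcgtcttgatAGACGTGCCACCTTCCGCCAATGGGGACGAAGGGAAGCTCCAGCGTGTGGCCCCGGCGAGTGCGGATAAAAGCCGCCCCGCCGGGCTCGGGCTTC

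chr3:4979187-4979436, plus strand, BHLHE40: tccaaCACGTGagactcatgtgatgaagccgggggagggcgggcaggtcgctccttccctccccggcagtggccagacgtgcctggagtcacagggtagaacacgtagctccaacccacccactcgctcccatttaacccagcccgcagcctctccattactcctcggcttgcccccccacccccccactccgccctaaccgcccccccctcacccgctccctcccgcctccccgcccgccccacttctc

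chr12:26125038-26125287, minus strand, BHLHE41: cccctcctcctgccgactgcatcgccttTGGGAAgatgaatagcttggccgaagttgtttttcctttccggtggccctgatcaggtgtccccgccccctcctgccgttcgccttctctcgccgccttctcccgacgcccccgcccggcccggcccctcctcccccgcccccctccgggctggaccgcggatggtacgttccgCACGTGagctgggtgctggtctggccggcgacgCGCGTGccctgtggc

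The motifs were searched on both strands, and none of their matches in these 6 stretches overlapped another. The E box CACGTG was present before BHLHE40, 245 to 240 bases from the start, and before BHLHE41, 48 to 43 bases from the start. It was found in 6.34% of the 35116 RefSeq promoter stretches of this length. The RBPJ core TGGGAA was present only before BHLHE41 among the 6 genes, 222 to 217 bases from the start, and in 20.8% of all stretches. The sites CACGAG and CACGCG, which HES and HEY proteins bind, were searched as well. The first was before none of the 6 genes and in 5.58% of all stretches. The second was before BHLHE41 alone, 15 to 10 bases from the start on the opposite strand, and in 9.72% of all stretches. None of the 4 motifs was in the ID1, ID2, ID3 or ID4 stretch. The 6 stretches had 62% to 78.8% G and C, against a median of 58% over all stretches. No peak of any library overlapped the stretch of a gene other than ID2, and the sequence under the other peaks was not used here.

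**Figure D1:**
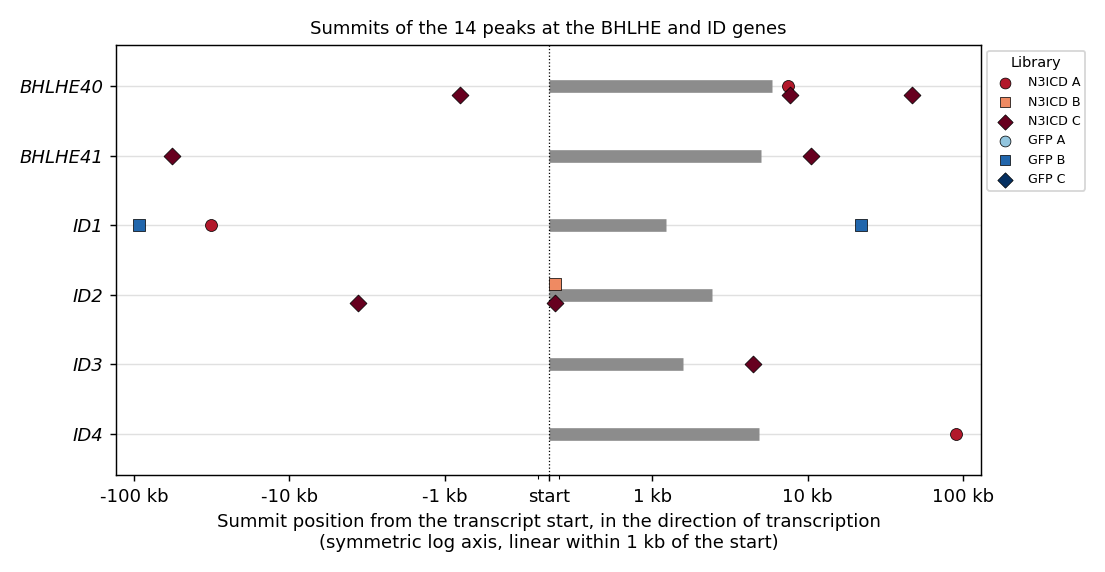
Summit positions of the 14 peaks relative to the transcript start of each gene, in the direction of transcription, on a symmetric log axis that is linear within 1 kb of the start. Grey bars are the genes and each marker is 1 peak of 1 library, moved slightly up or down where summits coincide. The ID2 summits of N3ICD B and C lie 65 and 62 bp past the start, those of N3ICD A and C at BHLHE40 lie past the far end of the gene, and both GFP summits lie at ID1.

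BHLHE40 (gene ID 8553, chromosome 3, 4979437 to 4985323, plus strand) had the most peaks of the 6 genes. It had 1, 0 and 3 peaks in N3ICD A to C, and 0, 0 and 0 in GFP A to C. The recurring region lay at chromosome 3, 4986723 to 4987256, outside any annotated gene. Its summits were 1637 bp past the far end of BHLHE40 in N3ICD A and 1757 bp past it in N3ICD C, 120 bp apart. The fold is the authors' ratio of stacked ChIP fragments to the local background, read here with 1 added to both. It was 3.46 in N3ICD A and 5.15 in N3ICD C. These peaks ranked differently in their own libraries, 1432nd of 2226 peaks by fold in N3ICD A and 262nd of 3397 in N3ICD C. The −log10 q was 0.558 in N3ICD A and 2.27 in N3ICD C. At the summit 12 fragments were stacked in N3ICD A over a local background of 2.76, and 10 in N3ICD C over 1.14. The local background was above the library-wide one in both, which was 1.27 in N3ICD A and 0.926 in N3ICD C, and its part in the result was not tested. The N3ICD A peak lay wholly inside the wider N3ICD C peak but covered 43.1% of it, so at a reciprocal overlap of 50% the pair no longer formed a region.

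The other BHLHE40 peaks came from N3ICD C alone and were stronger than most of that library's peaks. The upstream peak (chromosome 3, 4978502 to 4978894) had its summit 859 bp before the transcript start, inside the antisense transcript BHLHE40-AS1, with a fold of 4.67 and a −log10 q of 1.39. The distal peak (chromosome 3, 5026537 to 5026849) lay 41226 bp past the gene, with a fold of 6.23 and a −log10 q of 3.87. By fold it ranked 61st of 3397 peaks in N3ICD C, the highest percentile (97.9) of the 14 peaks. No other protein-coding gene reached into the 100 kb on either side of BHLHE40. All 3 peaks of the 14 that reached a −log10 q of 1.3 were the N3ICD C peaks at this gene.

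In N3ICD B the peak nearest to BHLHE40 was 174014 bp away (fold 3.93). The nearest peaks in GFP A to C were 1497533, 1570535 and 1064722 bp away. Thus in N3ICD B the nearest peak lay outside the 100 kb window, and in every GFP library it lay over 1 Mb away.

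BHLHE41 (gene ID 79365, chromosome 12, 26120030 to 26125037, minus strand), the paralog of BHLHE40, had 0, 0 and 2 peaks in N3ICD A to C, and 0, 0 and 0 in GFP A to C. Both were among the weakest of N3ICD C. The nearer one (26114298 to 26114602) lay 5499 bp past the gene's far end and had a fold of 2.82, 3385th of the library's 3397 peaks, over a local background of 2.19. The other (26181635 to 26181915) lay 56835 bp before the start, inside SSPN, the sarcospan gene of the dystrophin complex, with a fold of 3.08 and 5 stacked fragments. The −log10 q was 0.147 at both. In N3ICD A and B the nearest peaks were 638988 and 868834 bp away, and in GFP A to C 4204300, 1267859 and 630646 bp. The nearest GFP C peak was therefore closer than those of N3ICD A and B, and the groups overlapped in this distance.

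ID2 (gene ID 3398, chromosome 2, 8682056 to 8684461, plus strand) had the other recurring region and was the only 1 of the 6 genes with a summit inside its span. It had 0, 1 and 2 peaks in N3ICD A to C, and 0, 0 and 0 in GFP A to C. The region at chromosome 2, 8681961 to 8682370, spanned the transcript start. The summits lay 65 bp past the start in N3ICD B and 62 bp past it in N3ICD C, 3 bp apart. The fold was 3.87 in N3ICD B and 3.64 in N3ICD C, with 9 and 6 stacked fragments. These were ordinary peaks in strength, at percentile 67 of fold in N3ICD B and 39.4 in N3ICD C, and the −log10 q was 0.826 and 0.427. The overlap of 190 bp was 61.1% of the wider peak and 65.7% of the narrower, so the region remained at a reciprocal overlap of 50%.

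A second ID2 peak, in N3ICD C alone (chromosome 2, 8678266 to 8678518), had its summit 3636 bp before the ID2 start, inside the antisense transcript ID2-AS1, with a fold of 4.15 and a −log10 q of 0.828. The nearest peak was 871420 bp away in N3ICD A, and 1914370, 3551628 and 4215766 bp away in GFP A to C. In N3ICD B and C the nearest peaks were the recurring ones. The distances of all 3 N3ICD libraries were thus shorter than those of all 3 GFP libraries. This order also held at BHLHE40, ID3 and ID4, but not at BHLHE41 or ID1. N3ICD lists were longer, with 2226 to 3397 peaks against 1219 to 1718, and the part of this in the distances was not tested. The share of all genes with this order was not counted.

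ID1 (gene ID 3397, chromosome 20, 31605289 to 31606510, plus strand) was the only 1 of the 6 genes with a peak in a GFP library. It had 1, 0 and 0 peaks in N3ICD A to C, and 0, 2 and 0 in GFP A to C. The N3ICD A peak (31573083 to 31573360) lay 32029 bp before the start, 250 bp from the start of the long noncoding RNA LOC107985416, and its fold was 3.02. The GFP B peaks lay 20750 bp past the gene (31627036 to 31627346, fold 3.63) and 92530 bp before it (31512577 to 31512821, fold 3.18). None of the 3 overlapped another, and their −log10 q lay between 0.0894 and 0.226. The ID1 window also holds 4 other protein-coding genes, BCL2L1, COX4I2, HM13 and MCTS2, and each of the 3 summits lay nearer to an end of HM13 or COX4I2 than to ID1.

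ID3 and ID4 had 1 peak each. ID3 (gene ID 3399, chromosome 1, 23557926 to 23559501, minus strand) had 0, 0 and 1 peaks in N3ICD A to C, and 0, 0 and 0 in GFP A to C. The N3ICD C peak (23554737 to 23555086) lay 2867 bp past the gene's far end, 117 bp from the start of the long noncoding RNA LOC105376859, with a fold of 3.28 and a −log10 q of 0.427. ID4 (gene ID 3400, chromosome 6, 19837370 to 19842197, plus strand) had 1, 0 and 0 peaks in N3ICD A to C, and 0, 0 and 0 in GFP A to C. The N3ICD A peak (19927648 to 19927884) lay 85462 bp past the gene, with a fold of 3.09 and a −log10 q of 0.104. No other protein-coding gene reached into the ID4 window.

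The window of 100 kb decided some of these counts. Just inside it were the ID4 peak of N3ICD A and the GFP B peak 92530 bp from ID1. Just outside were a peak of N3ICD B 110547 bp from ID1 (fold 3.01), one of N3ICD A 132829 bp from ID1 (fold 3.97) and one of N3ICD C 146034 bp from ID4 (fold 4.15).

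**Figure D2:**
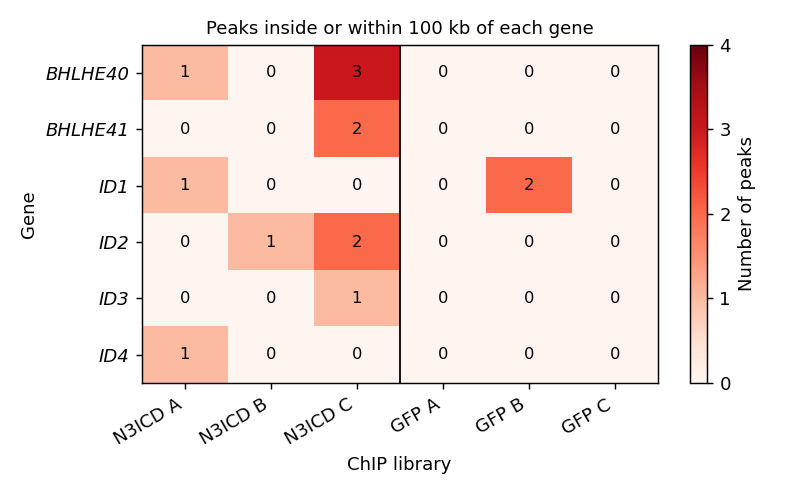
Number of peaks inside or within 100 kb of each gene (rows) in each ChIP library (columns), with N3ICD libraries left of the line and GFP libraries right of it. N3ICD C holds 8 of the 14 peaks and reaches 4 of the 6 genes, no gene has a peak in all 3 N3ICD libraries, and the only filled GFP cell is ID1 in GFP B.

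The first comparison asked whether the 6 genes together had more Notch3 peaks in cells with N3ICD. They had 3, 1 and 8 peaks in N3ICD A to C, against 0, 2 and 0 in GFP A to C. N3ICD libraries averaged 4 ± 3.61 peaks and GFP libraries 0.667 ± 1.15 (SD, n = 3 each), a difference of 3.33. The groups overlapped, because GFP B had more peaks here than N3ICD B, and the difference was smaller than the SD of the N3ICD libraries. A two-sided exact permutation test gave p = 0.2, and with 3 libraries against 3 it cannot go below 0.1. Of the 9 pairs of an N3ICD and a GFP library, 8 had more in the N3ICD library. Without N3ICD C the difference was 1.33 peaks, and with equal numbers of peaks taken from each library it was 1.67 (two-sided exact permutation p = 0.3).

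Each N3ICD library had more peaks in total than any GFP library, so the same counts were set against each library's total. The 6 genes took 0.135% (95% Wilson interval 0.0458% to 0.396%) of the 2226 peaks of N3ICD A, 0.0402% (0.00709% to 0.227%) of the 2490 of N3ICD B and 0.236% (0.119% to 0.464%) of the 3397 of N3ICD C. They took 2 of the 1533 peaks of GFP B, or 0.13% (0.0358% to 0.474%), and none of the 1219 of GFP A or the 1718 of GFP C. These intervals cover counting error only and overlapped one another. The mean share was 0.137% ± 0.0977 in N3ICD libraries and 0.0435% ± 0.0753 in GFP libraries (SD, n = 3 each), a difference of 0.0933 percentage points (two-sided exact permutation p = 0.2). Without N3ICD C this difference was 0.044 percentage points.

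Counted by gene, 3, 1 and 4 of the 6 genes had a peak in N3ICD A to C, against 0, 1 and 0 in GFP A to C. The mean was 2.67 ± 1.53 genes in N3ICD libraries and 0.333 ± 0.577 in GFP libraries (SD, n = 3 each; two-sided exact permutation p = 0.2), and with equal numbers of peaks the difference of 2.33 genes became 1. The share of all protein-coding genes with a peak by the same window was 17.1%, 29.7% and 35.2% in N3ICD A to C, and 5.47%, 8.05% and 7.7% in GFP A to C. The 6 genes were thus above this background in N3ICD A (50%) and C (66.7%) and below it in N3ICD B (16.7%). In N3ICD B the gap was smaller than 1 gene of the 6, and none of these differences was tested. All 6 genes had a peak in at least 1 N3ICD library, where 58.1% of all genes did. In at least 1 GFP library 1 of the 6 had a peak, where 17.8% of all genes did. A peak with N3ICD and none with GFP was found at 5 of the 6 genes, or 83.3%, and at 47.0% of all genes.

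**Figure D3:**
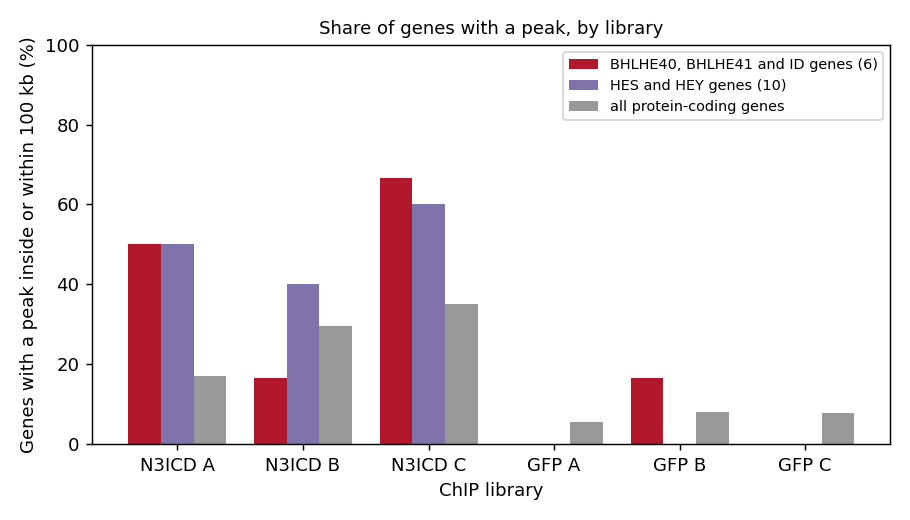
Percent of genes with a peak inside or within 100 kb in each ChIP library, for the 6 BHLHE and ID genes, the 10 HES and HEY genes and all 20037 protein-coding genes. The BHLHE and ID genes stand at 50%, 16.7% and 66.7% in N3ICD A to C and at 0%, 16.7% and 0% in GFP A to C.

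Within 10 kb of the 6 genes there were 1, 1 and 6 peaks in N3ICD A to C, and 0, 0 and 0 in GFP A to C. Every N3ICD library was above every GFP library, with a difference in means of 2.67 peaks (two-sided exact permutation p = 0.1, the smallest possible). The same separation was seen over all genes no longer than BHLHE40, which had 80, 227 and 331 pairs of a gene and a peak this close in N3ICD A to C and 19, 19 and 16 in GFP A to C, so it was not particular to the 6 genes. The 8 N3ICD peaks within 10 kb of the 6 genes lay at BHLHE40, BHLHE41, ID2 and ID3, and N3ICD C held 6 of them. Of the 12 N3ICD peaks in the windows, 8 or 66.7% (95% Wilson interval 39.1% to 86.2%) were within 10 kb of the gene. The interval treats the 12 peaks as independent, which they were not. Both recurring regions were counted once per library, and N3ICD C gave 8 of the 12, so the interval is no test against a background. Over genes no longer than BHLHE40, 18.9% of the 3374 pairs of a gene and an N3ICD peak within 100 kb were this close. By library that background was 14.8%, 18.4% and 20.7% in N3ICD A to C, and the 6 genes had 1 of 3, 1 of 1 and 6 of 8 peaks this close. In GFP A to C the background was 11.5%, 8.19% and 6.53%, and with only 2 GFP peaks in the windows a count of 0 is near it.

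Transcript starts of any RefSeq gene were close to some of these peaks. Of the 12 N3ICD peaks, 5 or 41.7% (19.3% to 68%) had a summit within 1 kb of a start, and 21.5% of all 8113 N3ICD peaks did. This interval also treats pooled peaks as independent, although the ID2 region was counted in 2 libraries. The 5 were both recurring ID2 peaks, the upstream BHLHE40 peak, and the ID1 and ID3 peaks, which lay at starts of long noncoding RNAs. Only 3 of the 12 were within 1 kb of the start of the BHLHE or ID gene itself. In N3ICD A to C 1 of 3, 1 of 1 and 3 of 8 of these peaks were within 1 kb of a start, where 10.3%, 25.1% and 26.3% of all peaks of the library were. In GFP A to C 0.492%, 0.652% and 1.16% of all peaks were this close to a start, and neither GFP B peak at ID1 was. Windows around genes hold starts by construction, so these shares carry no test.

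Most of the 14 peaks were not strong ones. The fold lay between 2.82 and 6.23 in the N3ICD libraries. Below percentile 50 of fold in their own library, with ties averaged, were 8 of the 14 peaks. Among these 8, the recurring ID2 peak of N3ICD C had a fold of 3.64, equal to the median of that library. The summit pileup was 5 to 12 stacked fragments. At this depth a few fragments separate a peak from none, and a missing peak says only that no site passed the authors' threshold. A −log10 q of 1.3 was reached by 3 of the 14 peaks, and by 6.56%, 14.1% and 20% of all peaks in N3ICD A to C. None of the 14 reached a −log10 q of 5.

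**Figure D4:**
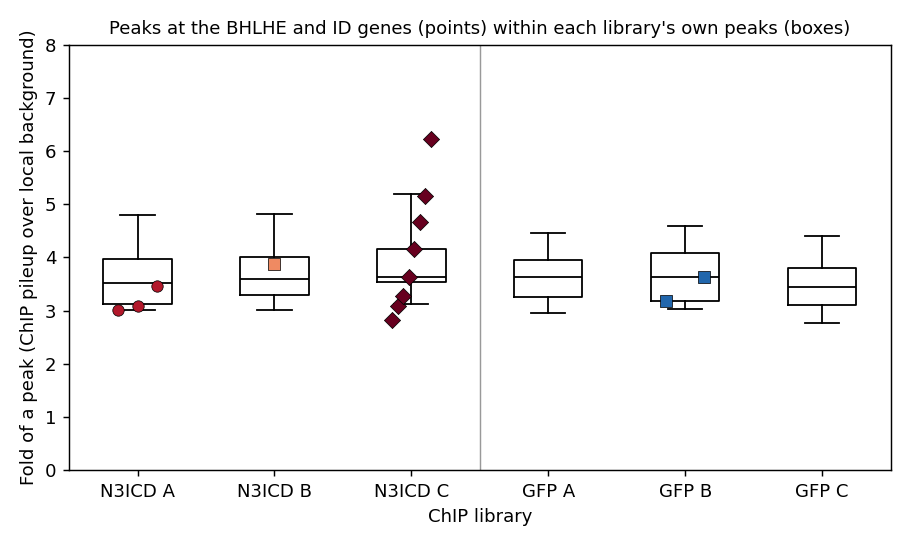
Fold of each peak at the BHLHE and ID genes (points) beside all peaks of its library (boxes from the 25th to the 75th percentile with the median, whiskers from the 5th to the 95th). The distal BHLHE40 peak of N3ICD C, at a fold of 6.23, stands above the whisker, and the recurring ID2 peaks, at 3.87 and 3.64, lie inside the boxes.

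**Figure D5:**
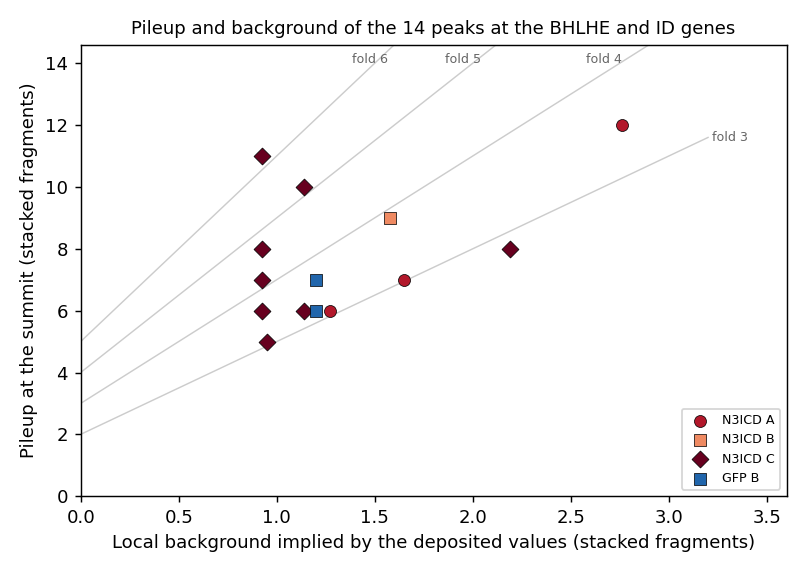
Pileup at the summit against the local background implied by the deposited pileup and fold, both in stacked fragments, for the 14 peaks, with lines of equal fold. The N3ICD A peak at BHLHE40 has the highest pileup, 12, and the highest background, 2.76, while the N3ICD C peaks with the highest folds stand over backgrounds of 0.926 and 1.14.

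The HES and HEY repressor genes, the best-known Notch targets, were counted by the same window for comparison. Of the 10 genes, 5, 4 and 6 had a peak in N3ICD A to C, and 0, 0 and 0 in GFP A to C. An N3ICD-only region was found at 2 of 6 BHLHE and ID genes (33.3%) and at 4 of 10 HES and HEY genes (40%). HEYL was the highest of them by mean percentile over the N3ICD libraries with a peak. Its best fold was 7.7 in N3ICD A and 6.05 in N3ICD C, against 3.46 and 6.23 at BHLHE40 in the same libraries. HEYL and BHLHE40 each had 0 peaks in N3ICD B. The 6.23 was the distal peak, 41226 bp past BHLHE40, and the recurring region there had 5.15 in N3ICD C. The nearest HEYL summits in both libraries lay inside that gene. Over the HES and HEY genes with peaks in at least 2 N3ICD libraries, the best fold in N3ICD C ran from 4.67 to 17.1. The difference between the 2 sets of genes was not tested.

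Proteins that pair with the BHLHE and ID products, or control their genes, were taken as a wider set. Among 14 E proteins and other helix-loop-helix partners of ID proteins, 7 (50%) had a peak in an N3ICD library and 4 (28.6%) in a GFP library. TCF3, an E protein that ID proteins sequester, had the only N3ICD-only region of this list. Summits were as near to TCF3 as 159 bp in N3ICD B and 155 bp in N3ICD C, with best folds of 5.45 and 6.69. TCF12, another E protein, had its nearest peaks at 30679 bp in N3ICD B and 15601 bp in N3ICD C and no N3ICD-only region. TWIST1, a neural crest regulator of the same protein family, had peaks 4625 bp away in N3ICD B (fold 4.26) and 69140 bp away in N3ICD C (fold 3.64), but also 2 peaks in GFP libraries.

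Of the 13 clock genes, which belong to the circuit that BHLHE40 and BHLHE41 restrain, 8 (61.5%) had a peak in an N3ICD library and none had one in a GFP library. CLOCK, which encodes a partner in the activator that drives the clock, had the only N3ICD-only region of the list, and its nearest summits in N3ICD B and C lay inside the gene with best folds of 3.87 and 3.25. PER2, a repressor of the clock, had a peak 1108 bp away in N3ICD C (fold 3.82) and one 76100 bp away in N3ICD A (fold 3.12). CIART, a further clock repressor, had its nearest peaks 33936 bp away in N3ICD B and 24512 bp away in N3ICD C.

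Of the 19 BMP pathway genes, 12 (63.2%) had a peak in an N3ICD library and 6 (31.6%) in a GFP library. SMAD6, an inhibitor of BMP signalling, had summits 896 and 892 bp away in N3ICD A and B, with folds of 3.53 and 3.48. The receptor gene BMPR1A had the other N3ICD-only region of the list. The summits nearest to BMPR1A lay 24596 bp away in N3ICD B and 38598 bp away in N3ICD C. The best fold was 3.64 among 2 peaks in N3ICD B, and 5.17 at the 1 peak in N3ICD C. ENG, a coreceptor, had 5 peaks in N3ICD B and 3 in N3ICD C, none of them in an N3ICD-only region, and BMP6, a ligand, had 1 peak each in N3ICD A and B and 1 in a GFP library. The shares of these lists with an N3ICD peak were 50% to 63.2%, beside 58.1% of all protein-coding genes. With a GFP peak they were 28.6% for the partners, 0% for the clock genes and 31.6% for the BMP pathway, beside 17.8% of all genes, and these differences were not tested.

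The patterns of BHLHE40 and ID2 over the 6 libraries were compared with those of all protein-coding genes over 1 Mb away from the 6 genes. Likeness was the Euclidean distance between the percentiles of the best peak within 100 kb in each library, with 0 for none. FBXL7 was nearest to BHLHE40 (distance 4.98, with percentiles of 30.8 and 96.6 in N3ICD A and C against 35.6 and 97.9), followed by R3HDM1 at 13.3, and then ANKRD16, FBH1 and GDI2, all at 13.4 with the same percentiles. For ID2 54 genes tied at a distance of 0. The first 5 of these by name were ADARB1, BECN1, BEST4, BICDL2 and BTBD19. The ID2 percentile in N3ICD C, 69, was that of the upstream peak, and the recurring peak there stood at 39.4. Neighbouring genes can share a peak, so tied genes may not be separate cases. Peaks of equal fold in a library also share a percentile, so genes with different peaks can tie at 0.

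As a check of the labels, 2, 1 and 1 peaks lay inside NOTCH3 in N3ICD A to C and 0, 0 and 0 in GFP A to C. Peak lists hold no expression, so the labelled cell types were not checked against their markers. By the same window, peaks in an N3ICD library were found at 10 of 14 mural and pericyte markers, 8 of 13 neural crest markers, 4 of 6 endothelial markers and 2 of 6 pluripotent markers, beside 58.1% of all genes. Peaks in a GFP library were found at 2, 4, 1 and 0 genes of these lists, beside 17.8% of all genes. N3ICD-only regions lay in the windows of 3 of 14 mural markers (DES, MCAM and TAGLN) and 1 of 6 endothelial markers (CLDN5). No neural crest or pluripotent marker had one, and 3.87% of all genes did. The nearest N3ICD B summits were 30679 bp from DES, 3412 bp from MCAM, 54754 bp from TAGLN and 90555 bp from CLDN5. MCAM also had 1 GFP peak elsewhere in its window. Library-wide background, the only measure of depth in the files, was 1.27, 1.58 and 0.926 stacked fragments in N3ICD A to C and 1.46, 1.2 and 1.9 in GFP A to C. N3ICD C, which held 8 of the 12 N3ICD peaks at the 6 genes, had the most peaks and the lowest background of the 6 libraries, and the part of depth in these counts was not tested.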

How the data were processed

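The authors called peaks in each of 6 Notch3 ChIP libraries separately, and the lists were used as deposited. The genome build was hg38, and MACS3 3.0.0a7, Bowtie2 2.2.1, deepTools 3.5.1, bedtools 2.30.0 and SAMtools 1.11 are named, per the submitters' processing notes. Tool options, read totals and the control of each call are not given in the sources used here. Fixation was in 1% formaldehyde and chromatin was cut enzymatically, per the labels' protocols, and such enzymes cut accessible DNA more readily. The deposited fold is a ratio of pileup to local background, read here with 1 added to both. Significance was deposited as −log10 p and −log10 q, and the lowest −log10 p was 3.3 to 3.34 per library, so weak sites are included. The deposited signal (summit pileup, from the series-wide table) gave the local background as (pileup + 1) / fold − 1. The library-wide background is its lowest value repeated at least 5 times.

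Positions are 1-based. Gene spans and transcript starts came from RefSeq (GRCh38.p14), with all 6 genes and all list genes matched. A peak belonged to a gene when its summit lay within 100 kb of the span. Libraries were compared with two-sided exact permutation tests. All 6 genes are named whatever their values. Of each other list up to 6 genes with peaks in at least 2 N3ICD libraries are named. These are taken by mean percentile of fold over the N3ICD libraries with a peak. One gene that this rule names is not reported here. For HES and HEY genes and cell type markers only counts, a range of fold and examples are given. The members and lists were chosen with earlier results of these data known. Counting was tested on simulated peak lists. The software was SciPy 1.17.1, numpy 2.4.6, matplotlib 3.10.9 and pandas 2.3.3 under Python 3.11.15.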

Additional observations from a re-analysis of the deposited data

How the results depend on the processing

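The window, q threshold, peak number per library, overlap rule and library support were varied, and single libraries were left out. No result changed direction, but the tests cannot pass 0.05, which says nothing of stability. At a −log10 q of at least 5 no peak was left at the 6 genes, so the differences in peaks, share and genes were 0, 0 and 0. The 2 N3ICD-only regions became 0 at a −log10 q of at least 1.3, 0 at 5 and 0 with support of all 3 libraries. They became 1 with equal numbers of peaks per library, at BHLHE40, and 1 at a reciprocal overlap of 50%, at ID2. Each of these settings is stricter by construction. With equal numbers of peaks the differences were 1.67 peaks, 0.137 percentage points and 1 gene (exact permutation p = 0.3 for each). At a −log10 q of 1.3 or more they were 1, 0.147 and 0.333 (exact permutation p = 1 for each). With 1 library left out the N3ICD-only count ranged from 0 (without N3ICD C) to 2. The difference in peaks then ranged from 1.33 to 4.83, that in share from 0.044 to 0.142 percentage points and that in genes from 1.67 to 3.17. The GFP-only count was 0 under every alternative listed. With the replicate letter as a block the difference was again 3.33 peaks (exact sign-flip permutation p = 0.5, smallest possible 0.25). Over 20037 genes, deviations of libraries with the same letter correlated at 0.0111, −0.0065 and −0.0151, so no pairing by letter was measurable, and whether a letter marks 1 differentiation is not stated. Few stacked fragments per peak limit what these lists can show.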
